A study of Mus musculus with 2 samples.

Results

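The 8 genes described here carry signals that hold back or promote the engulfment of cells by macrophages: Cd47 with its receptor Sirpa and its secreted ligand Thbs1, and the bridging ligands Gas6 and Pros1 with their receptors Axl, Mertk and Tyro3. They were selected by gene symbol with no threshold on a measured value, though with earlier results of these data known, and each of the 8 was found under 1 identifier among the 34097 genes of the count matrices. Their unique molecular identifiers (UMIs, counted molecules) were summed per library in 4 classes of cells cut by marker genes, and levels are given as CPM, the count scaled to the total UMIs of those cells and that library.

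CD47 is a surface protein of most cells, and its binding to SIRPα on a macrophage sends a signal that restrains engulfment, which has made the pair a target in tumour immunology. Thrombospondin-1, the product of Thbs1, is a secreted matrix glycoprotein that also binds CD47. GAS6 and protein S, the product of Pros1, bind phosphatidylserine exposed on dying cells and bridge it to the TAM receptor tyrosine kinases, GAS6 to TYRO3, AXL and MERTK and protein S mainly to TYRO3 and MERTK. The TAM receptors drive the uptake of dying cells and dampen inflammatory signalling in macrophages. AXL is also known from mesenchymal tumour cells.

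The 2 mouse libraries were labelled lung cancer xenograft and LLC, the Lewis lung carcinoma line, and the series asked how the tumour's immune cells and their signalling relate to Gfpt2, an enzyme of hexosamine synthesis. One library was labelled control and 1 shRNA to knock down GFPT2, and the labels give no strain, sex, age, hairpin sequence or number of animals for either, so a library may pool several tumours. With 1 library per group no difference could be set against a spread between tumours, so no test was run, and the 95% intervals (exact Poisson for levels and ratios, exact binomial for shares of cells) cover counting error only. Ratios are log2 values of knockdown over control, and where values stand in a pair the control library comes first.

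After filtering, the control library held 10660 cells with a median of 9357 UMIs and the knockdown library 11450 cells with a median of 7167.5, and 37 barcodes occurred in both libraries. Gfpt2 itself had 246 UMIs (1.77 CPM) in the control library and 67 UMIs (0.564 CPM) in the knockdown library, in the direction of the labels. Macrophages (C1qa, C1qb and C1qc summing to at least 10 per 10000 UMIs) numbered 3998 under control and 4584 under knockdown. Monocytes (Lyz2 at least 20 and C1q under 5 per 10000) numbered 144 and 40. T cells (at least 2 UMIs of Cd3d, Cd3e and Cd3g) numbered 801 and 674. Tumour-like cells (no UMI of Ptprc, which encodes CD45, Lyz2 under 5 per 10000 and at least 5000 UMIs) numbered 4977 and 5195. These classes are ranges of gene counts rather than cell types: 177 and 219 cells lay within 20% of the macrophage threshold and 387 and 483 cells had 1 or 2 CD3 UMIs.

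Markers that the cuts did not use were read in each class. The 12 T cell markers summed to 2681 and 3369 CPM in T cells and 74.95 and 91.1 CPM in macrophages, but the T cell class also held macrophage markers at 4875 and 6252 CPM. The 10 macrophage markers summed to 57838 CPM in control macrophages against 419 CPM in control tumour-like cells. The macrophage class also held RNA of the tumour-like cells, and more of it in the knockdown library: Hmga2, a chromatin protein gene high in the tumour-like class (221 and 219 CPM), stood at 33.5 CPM in macrophages of the control library and 91.3 CPM in those of the knockdown library, and no Ptprc UMI was seen in 29.7% and 39.97% of macrophages. For that reason the members' macrophage levels and ratios are also given for CD45+ macrophages, which had at least 1 Ptprc UMI and Lyz2 of at least 20 per 10000 (2389 and 2233 cells), a class chosen after the data were seen. There Hmga2 was at 14.7 and 41.4 CPM, and the macrophage markers summed to 64460 and 62874 CPM. Of the 12 tumour markers, 11 had more than 3 UMIs in the tumour-like class of each library, and they summed to 558 and 608 CPM. The simple epithelial genes among them were at or near 0, Epcam having 5 and 4 UMIs, Krt8 9 and 8, and Krt18 1 and 0, while Krt14 (13.6 and 23.9 CPM) and Krt16 (35.8 and 5.67 CPM) were detected. The class also expressed fibroblast genes such as Col3a1 (1415 and 1647 CPM), and whether it held fibroblasts was not tested. All 10 fibroblast markers were detected there, summing to 3001 and 3372 CPM, and the same list summed to 379 and 1012 CPM in macrophages. Monocytes had few UMIs of most members, and neutrophil markers in that class summed to 1286 and 83.8 CPM. The 10 monocyte markers summed to 7434 and 6648 CPM in monocytes, against 1080 and 1494 CPM in macrophages. The monocyte class also held the macrophage markers, at a higher sum of 10937 and 12383 CPM.

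**Figure D1:**
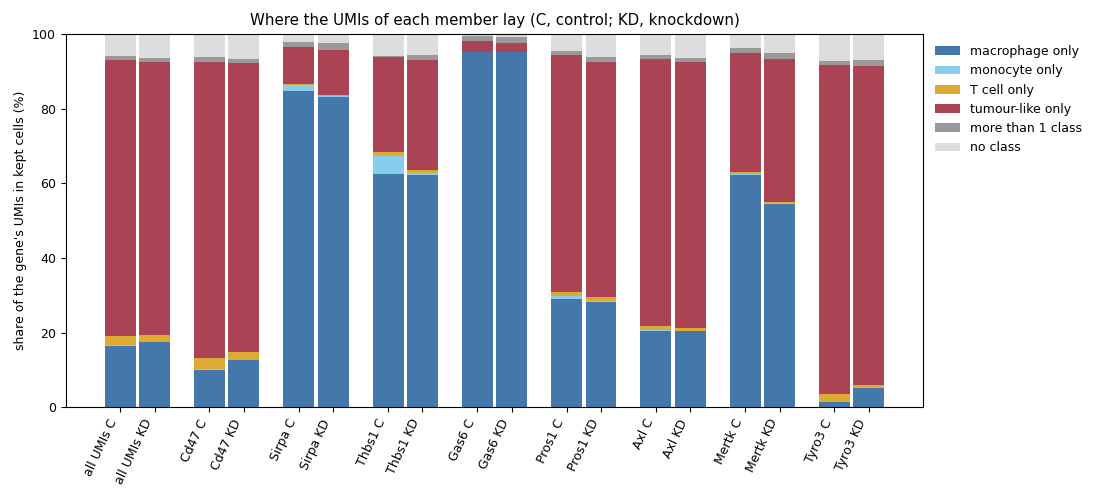
Share of each gene's UMIs (%, vertical axis) by class of kept cells, every cell counted once, for all UMIs and for each member in the control (C) and knockdown (KD) libraries. Gas6 and Sirpa lay mostly in macrophages, Cd47, Axl and Tyro3 mostly in tumour-like cells, and Pros1, Thbs1 and Mertk in both.

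The 8 genes divided between the classes in nearly the same way in both libraries. Macrophages held 96.5% of all Gas6 UMIs in each library and 85.9% (control) and 84.9% (knockdown) of Sirpa UMIs, although they contributed 16.4% and 17.5% of all UMIs when cells of more than 1 class are set aside. Tumour-like cells held 88.5% and 86.5% of Tyro3 UMIs, 79.8% and 78.1% of Cd47 UMIs, 72.1% and 71.9% of Axl UMIs and 63.8% and 63.5% of Pros1 UMIs. Thbs1 was split, with 62.8% and 63.5% in macrophages and 25.6% and 29.8% in tumour-like cells. Mertk was the member whose division moved most between the libraries, its macrophage share being 63.5% under control and 56.0% under knockdown.

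Cd47, the restraining ligand, was detected in every class at more than 200 CPM. In tumour-like cells it stood at 430.1 CPM (426 to 434) and 448.0 CPM (444 to 452), with a log2 ratio of 0.06 (0.04 to 0.08). In macrophages it stood at 253 CPM (246 to 259) and 308 CPM (301 to 315), a log2 ratio of 0.29 (0.24 to 0.34), or 0.19 by TMM scaling or with Scrublet's own doublet threshold. In CD45+ macrophages the levels were 237 and 274 CPM and the ratio 0.21 (0.14 to 0.28), with Hmga2 still unequal there (14.7 and 41.4 CPM). Cd47 was 1.82-fold (1.76 to 1.88) higher in tumour-like cells than in CD45+ macrophages under control and 1.64-fold (1.58 to 1.70) higher under knockdown. Tumour RNA at the level of Col3a1 found in CD45+ macrophages would give 29.5 and 57.9 CPM of Cd47, and the part of tumour RNA in the pair was not tested. Leaving out CD45+ macrophages with an Hmga2 UMI gave a ratio of 0.18. T cells had 479 and 464 CPM of Cd47. Restricting them to cells with a Ptprc UMI, C1q under 5 per 10000 and no Hmga2 UMI (366 and 340 cells, also chosen after the data were seen) gave 602 and 508 CPM, a log2 ratio of -0.25 (-0.40 to -0.09). Monocytes, with 204 and 50 UMIs, had 394 and 466 CPM, and their intervals overlapped. In the order of levels the cleaned T cells stood first and macrophages last in both libraries, while under knockdown the interval of monocytes (346 to 614 CPM) overlapped those of cleaned T cells (467 to 551 CPM), all T cells and tumour-like cells, so the first place is not resolved there.

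Sirpa, the receptor of Cd47 on myeloid cells, was a macrophage and monocyte gene here. It stood at 269 CPM (262 to 276) in macrophages of the control library and 212 CPM (206 to 219) in those of the knockdown library, giving a ratio (log2) of -0.34 (-0.40 to -0.29). In CD45+ macrophages it stood at 291 CPM (283 to 299.6) and 272 CPM (263 to 282), a ratio of -0.10 (-0.16 to -0.03), and leaving out CD45+ macrophages with an Hmga2 UMI gave -0.04. The ratio of the whole macrophage class lay more than 3 times as far from 0 as that of CD45+ macrophages. Monocytes had 238 CPM (197 to 283) from 123 UMIs and 158 CPM (92.2 to 253) from 17 UMIs. In tumour-like cells Sirpa was 7.19 CPM and 7.80 CPM, against 1.60 and 1.77 CPM that macrophage RNA would give at the C1q level of those cells. T cells had 26.6 and 33.6 CPM of Sirpa, and the cleaned T cells 10.2 CPM from 14 UMIs and 3.53 CPM from 4 UMIs.

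Thbs1, the secreted CD47 ligand, was higher in the knockdown library in both large classes. In CD45+ macrophages it stood at 35.0 CPM (32.2 to 38.0) and 54.5 CPM (50.4 to 58.8), with a log2 ratio of 0.64 (0.48 to 0.80), and 301 of 9381 genes compared there had a higher ratio. The whole macrophage class gave 34.0 and 44.6 CPM, a ratio of 0.39 (0.26 to 0.53), under 1.5-fold. Over 12 alternatives the macrophage ratio ran from 0.252 with thinned cells to 0.654 in CD45+ macrophages without Hmga2, with 0.295 by TMM scaling. In tumour-like cells it stood at 3.20 CPM (2.86 to 3.56) and 5.24 CPM (4.77 to 5.75), a log2 ratio of 0.71 (0.51 to 0.92), and 161 of 12375 genes had a higher ratio. Few tumour-like cells carried that RNA: 4.68% of control and 5.62% of knockdown cells had a Thbs1 UMI, and the 1% of cells with the most held 44.7% and 43.8% of the UMIs. The tumour-like cells with a Xist UMI (212 and 228 cells) had 9.33 and 20.4 CPM against 2.88 and 4.49 CPM in those without one. Xist, which marks cells with an inactive X chromosome, was at 2.81 and 4.01 CPM in tumour-like cells and at 491 and 387 CPM in macrophages, and Hmga2 was at 213 and 219.5 CPM in the tumour-like cells with a Xist UMI against 221 and 219 CPM in those without. Leaving out the cells with a Xist UMI gave a tumour-like Thbs1 ratio of 0.64 (0.41 to 0.87). Control monocytes had the highest Thbs1 level of any class, 119.7 CPM (91.8 to 154) from 62 UMIs, and the 10 UMIs of knockdown monocytes gave 93.1 CPM (44.7 to 171).

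**Figure D2:**
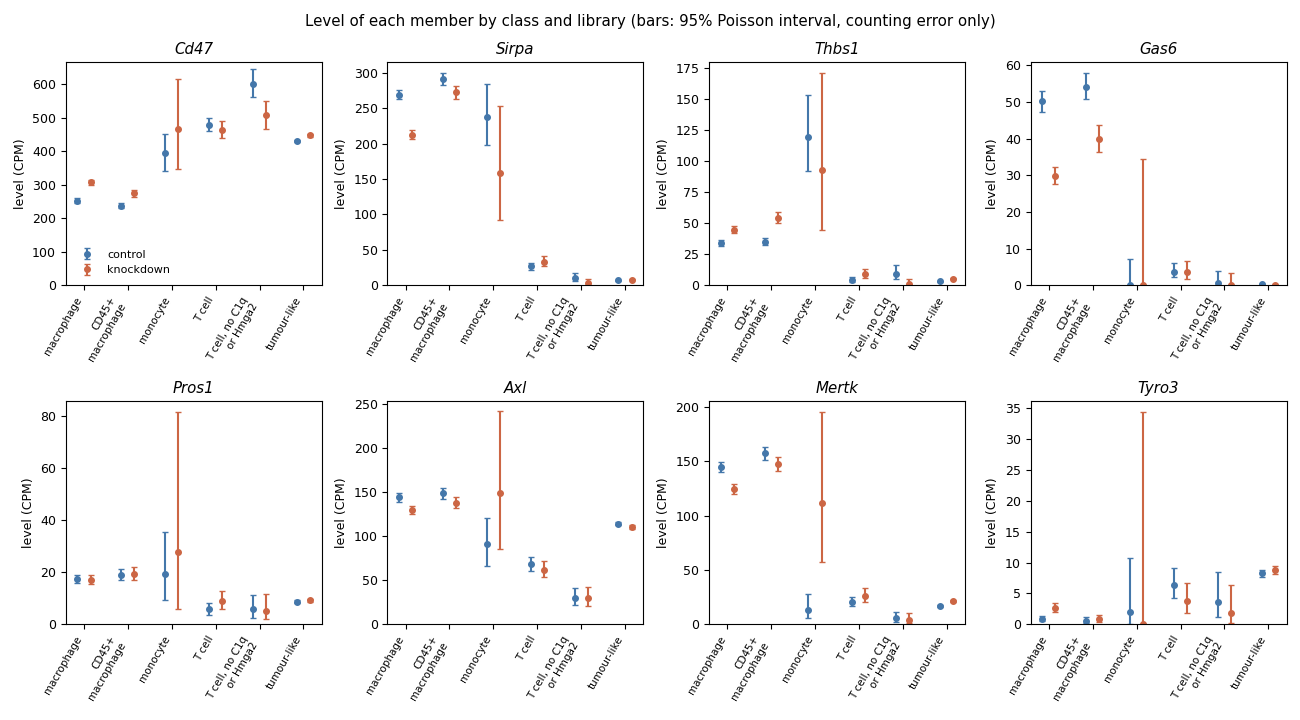
Level of each member (CPM, vertical axis from 0) in the 4 classes, in CD45+ macrophages and in T cells without C1q or Hmga2, as points with 95% Poisson intervals for the control and knockdown libraries. Gas6 is near 0 outside the macrophage classes, Sirpa is high in macrophages and monocytes, and the wide bars are those of the 40 knockdown monocytes.

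Gas6, a ligand of all the TAM receptors, was nearly confined to macrophages in these libraries. It stood at 50.2 CPM (47.4 to 53.1) from 1202 UMIs in control macrophages and at 29.95 CPM (27.7 to 32.3) from 657 UMIs in knockdown macrophages. The log2 ratio was -0.75 (-0.89 to -0.61), and 63 of 10789 genes compared had a lower one. In CD45+ macrophages it stood at 54.3 CPM (50.7 to 58.0) and 39.95 CPM (36.5 to 43.7), a ratio of -0.44 (-0.60 to -0.28), with 257 of 9381 genes lower. Without Hmga2-bearing cells the CD45+ ratio was -0.35, and the part of tumour RNA in these ratios was not tested. The share of macrophages with a Gas6 UMI was 19.5% under control and 10.8% under knockdown. When each cell was thinned to 3000 UMIs, leaving out 914 and 1703 shallower cells, the shares were 13.1% (11.9% to 14.3%) and 8.40% (7.41% to 9.47%). In CD45+ macrophages they were 23.8% and 15.9% before thinning and 13.5% (12.1% to 15.0%) and 9.73% (8.40% to 11.2%) after it. Monocytes had 0 Gas6 UMIs in both libraries, which allows levels of up to 5.79 and 27.9 CPM. The 36 and 17 Gas6 UMIs of tumour-like cells gave 0.348 and 0.194 CPM, next to 0.297 and 0.260 CPM for macrophage RNA at the same C1q level. T cells had 17 and 11 UMIs (3.74 and 3.73 CPM, against 4.05 and 4.04 CPM at their C1q level), and after cleaning 1 and 0 UMIs were left, the 0 allowing up to 2.65 CPM.

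Pros1, the gene of protein S, did not share this pattern. It stood at 17.3 CPM (15.7 to 19.1) in macrophages of the control library and 17.0 CPM (15.3 to 18.8) in those of the knockdown library, giving a ratio (log2) of -0.03 (-0.23 to 0.18). CD45+ macrophages had 18.9 and 19.4 CPM of Pros1. In tumour-like cells it stood at 8.59 CPM (8.03 to 9.17) and 9.18 CPM (8.56 to 9.84), a ratio of 0.10 (-0.04 to 0.24). Macrophage RNA at their C1q level would give 0.104 and 0.126 CPM of Pros1, and its part was not tested. The Pros1 level per UMI was 2.20-fold (1.93 to 2.51) higher in CD45+ macrophages than in tumour-like cells of the control library. In the knockdown library it was 2.11-fold (1.82 to 2.44) higher, while most Pros1 UMIs came from the tumour-like class. No difference between the libraries was detectable at this depth in either class.

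The RefSeq promoter table (GRCm38.p6) held windows for 6 of the 8 members. The 250 bases before the annotated start of Gas6 and of the receptors Axl and Mertk are shown because these genes of 1 signalling axis differed in their class pattern, Gas6 being a macrophage gene and Axl present in both compartments. Each is written 5′ to 3′ on the gene's strand, with matches in capitals. Gas6 is at chr8:13494536-13494785 on the minus strand, Axl at chr7:25788734-25788983 on the minus strand and Mertk at chr2:128698665-128698914 on the plus strand.
Gas6: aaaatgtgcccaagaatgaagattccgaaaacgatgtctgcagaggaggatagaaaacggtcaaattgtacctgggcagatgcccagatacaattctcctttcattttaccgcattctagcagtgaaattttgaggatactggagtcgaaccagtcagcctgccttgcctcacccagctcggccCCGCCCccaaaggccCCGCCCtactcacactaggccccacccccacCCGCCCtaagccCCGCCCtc
Axl: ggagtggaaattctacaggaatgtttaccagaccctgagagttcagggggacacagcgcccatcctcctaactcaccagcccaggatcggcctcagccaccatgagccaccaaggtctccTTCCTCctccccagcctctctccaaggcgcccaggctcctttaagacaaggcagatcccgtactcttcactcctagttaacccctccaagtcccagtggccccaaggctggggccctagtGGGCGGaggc
Mertk: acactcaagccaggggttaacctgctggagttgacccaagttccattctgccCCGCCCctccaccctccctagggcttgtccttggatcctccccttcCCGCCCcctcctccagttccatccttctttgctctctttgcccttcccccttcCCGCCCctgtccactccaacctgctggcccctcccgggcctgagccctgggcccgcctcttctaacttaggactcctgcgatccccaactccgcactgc
The motifs searched on both strands were the GC box GGGCGG, the PU.1 core GAGGAA, the AP-1 site TGANTCA, the STAT site TTCNNNGAA and the IRF site, 2 GAAA runs with 2 bases between them. The Gas6 window held 4 GC boxes, the Axl window 1 GC box and 1 PU.1 core, and the Mertk window 3 GC boxes. GC boxes were found in 32.7% of 32851 windows of this length, PU.1 cores in 23.3%, AP-1 sites in 6.75%, STAT sites in 7.02% and IRF sites in 2.98%. A match describes the letters of the window and not the binding of a factor.

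Axl, the TAM receptor with the highest affinity for GAS6, was present in macrophages and tumour-like cells at similar levels. In tumour-like cells it stood at 114 CPM (112 to 116) and 111 CPM (108 to 113), with a log2 ratio of -0.05 (-0.09 to -0.01). In macrophages it stood at 144 CPM (139 to 149) and 129.7 CPM (125 to 135), a ratio of -0.15 (-0.22 to -0.08), and in CD45+ macrophages at 149 and 138 CPM, a ratio of -0.11 (-0.20 to -0.02). The Axl level in CD45+ macrophages was 1.30-fold (1.24 to 1.36) that of tumour-like cells in the control library and 1.25-fold (1.19 to 1.32) in the knockdown library. Monocytes had 90.8 CPM from 47 UMIs and 149 CPM from 16 UMIs, with overlapping intervals. T cells had 68.3 and 62.0 CPM, and cleaned T cells 30.5 CPM (22.0 to 41.2) and 30.02 CPM (20.8 to 42.0). Tumour RNA at the Col3a1 level of the cleaned T cells would give 34.2 and 17.0 CPM of Axl, within or below those intervals.

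Mertk, the main receptor for the uptake of dying cells by macrophages, was 9.24-fold (8.69 to 9.83) higher in CD45+ macrophages than in tumour-like cells of the control library and 6.84-fold (6.41 to 7.30) higher in the knockdown library. It stood at 145 CPM (139.8 to 149.5) in macrophages of the control library and 125 CPM (120.0 to 129) in those of the knockdown library, giving a ratio (log2) of -0.22 (-0.29 to -0.14). In CD45+ macrophages it stood at 157 CPM (151 to 163) and 147 CPM (141 to 154), a ratio of -0.09 (-0.18 to -0.01). In tumour-like cells the direction was the opposite, with 17.0 CPM (16.2 to 17.8) and 21.5 CPM (20.6 to 22.5), with a ratio of 0.34 (0.25 to 0.44), and 883 of 12375 genes had a higher one. Macrophage RNA at the C1q level of the tumour-like cells would give 0.861 and 0.958 CPM of Mertk, and its part in the ratio was not tested. In the 642 and 860 tumour-like cells without any C1q UMI the levels were 24.2 and 26.5 CPM and the ratio 0.13 (-0.13 to 0.39). The 7 control and 12 knockdown Mertk UMIs of monocytes gave 13.5 CPM (5.44 to 27.9) and 112 CPM (57.7 to 195), which rest on 6 and 8 cells.

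Tyro3, the third TAM receptor, had most of its UMIs in the tumour-like class. It stood there at 8.24 CPM (7.69 to 8.81) and 8.81 CPM (8.20 to 9.45), with a log2 ratio of 0.10 (-0.05 to 0.24). T cells had 6.38 CPM (4.28 to 9.17) and 3.73 CPM (1.86 to 6.67). Tumour-like cells were 1.29-fold (0.89 to 1.94) higher under control, which is not resolved, and 2.36-fold (1.31 to 4.75) higher under knockdown. Tumour RNA at the Col3a1 level of T cells would give 3.89 and 3.11 CPM, and its part was not tested. Cleaned T cells had 5 and 2 Tyro3 UMIs. Macrophages had 21 and 59 Tyro3 UMIs (0.877 and 2.69 CPM). Tumour RNA at the Col3a1 level of those macrophages would give 0.999 and 2.62 CPM, values inside the intervals of the measured levels (0.543 to 1.34 and 2.05 to 3.47). CD45+ macrophages had 10 UMIs of Tyro3 in each library. A difference in macrophage Tyro3 therefore cannot be told apart from the difference in tumour RNA.

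**Figure D3:**
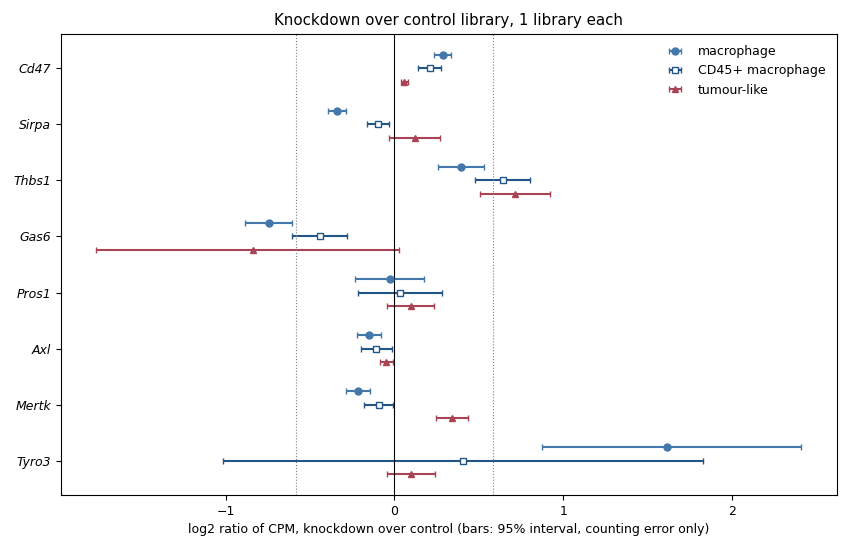
Log2 ratio of CPM, knockdown over control (horizontal axis), for each member in macrophages, CD45+ macrophages and tumour-like cells, with 95% intervals for counting error and dotted lines at 1.5-fold. Gas6 lies to the left in both macrophage classes, Thbs1 to the right in all 3, and Mertk on opposite sides in macrophages and tumour-like cells.

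Read against all genes, few members passed a fold of 1.5 with at least 100 UMIs in 1 library. In macrophages 1 of 7 members compared (Gas6) was lower, where 1.32% of 10789 genes were lower, and 0 of 7 were higher, where 10.6% were higher. Gas6 fell short of the fold with Scrublet's own doublet threshold (-0.53) and in macrophages without Hmga2 (-0.501). In CD45+ macrophages 1 of 7 (Thbs1) was higher, where 3.78% of 9381 genes were higher, and 0 were lower, where 1.39% were lower. In tumour-like cells 1 of 7 (Thbs1) was higher, where 2.2% of 12375 genes were higher, and 0 were lower, where 0.743% were lower. Thbs1 fell short of the fold there when every cell was weighted equally (0.56) and in cells without C1q (0.57, from 42 and 68 UMIs). Of 3 members compared in T cells 0 passed in either direction, with 3.01% of 6285 genes higher and 1.53% lower (189 and 96 genes, or 147 and 128 under TMM scaling). Of 2 compared in monocytes 1 (Sirpa) was lower, where 13.4% of 785 genes were lower and 3.18% higher. That Sirpa ratio, -0.59 (-1.41 to 0.15), lay just past the fold, its interval includes 0, and 8 of 9 alternatives put it inside the fold (-0.52 to -0.24). The median log2 ratio of the members was -0.15 in macrophages, -0.09 in CD45+ macrophages and 0.10 in tumour-like cells, beside medians of 0.10, 0.03 and 0.04 over all genes compared.

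Inside the CD45+ macrophages the members followed different cell states, and the patterns given here had the same direction in both libraries. Cells were split at the median of a score over both libraries, the score being the UMIs of a short gene list per 10000. Gas6 went with the scavenger genes (Mrc1, Cd163, Folr2, Cbr2, Lyve1), at 70.2 CPM above and 35.0 CPM at or below the median in the control library and 48.1 and 32.6 CPM in the knockdown library. It ran against the class II genes (H2-Aa, H2-Ab1, H2-Eb1, Cd74), at 35.9 CPM above and 67.5 CPM below under control and 30.4 and 51.1 CPM under knockdown. Gas6 was also lower in cells above the median of the interferon score (42.6 against 61.0 CPM and 35.7 against 46.7 CPM). The knockdown library had more CD45+ macrophages above that median (1378 of 2233) than the control library (933 of 2389). Within the cells above it the knockdown over control ratio of Gas6 was -0.26 (-0.51 to -0.002), and within those below it -0.39 (-0.61 to -0.16). Among cells above the scavenger median the ratio was -0.55 (-0.75 to -0.34), and among those below it -0.10 (-0.37 to 0.17).

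Axl, in contrast, was higher in macrophages with more class II RNA, at 179 against 127 CPM under control and 161 against 112 CPM under knockdown. Pros1 (22.3 against 16.4 CPM and 22.2 against 16.1 CPM) and Sirpa (309.6 against 277.9 CPM and 293.3 against 247.7 CPM) were higher there too. So was Mertk (181.2 against 139.7 CPM and 152.6 against 141.0 CPM), with a knockdown log2 interval that includes 0 (-0.02 to 0.25). Thbs1 and Cd47 were not higher there in both libraries. Mertk was higher with the scavenger genes, at 176 against 134 CPM and 161 against 135 CPM. Sirpa was higher with them too, at 311 against 267 CPM and 305 against 243 CPM. In cells with a UMI of the cycling genes, whose median score was 0, Sirpa was lower, at 278 against 308 CPM and 240 against 302 CPM. Its ratio between the libraries was -0.21 (-0.31 to -0.12) in those cells and -0.03 (-0.12 to 0.06) in the others. Mertk was lower there as well, at 143 against 175 CPM and 133 against 160 CPM, as were Gas6 (49.8 against 59.96 CPM and 32.8 against 46.6 CPM) and Thbs1 (27.9 against 44.1 CPM and 45.2 against 63.0 CPM). Hmga2 was higher in those cells, at 17.7 against 10.7 CPM and 63.5 against 21.2 CPM. Cd47 was higher above the interferon median, at 279 against 213 CPM and 292 against 245 CPM. Within those cells its ratio between the libraries was 0.07 (-0.02 to 0.16), and below the median it was 0.21 (0.10 to 0.31). Hmga2 differed between some of these parts, being 14.0 CPM above and 73.4 CPM below the class II median of the knockdown library, and its part in the splits was not tested.

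Tumour-like cells showed another order. Pros1 was higher in cells above the median of a matrix score (Col1a1, Col1a2, Col3a1, Dcn, Lum, Postn), at 13.8 against 5.22 CPM under control and 13.5 against 5.36 CPM under knockdown. Mertk was higher there as well, at 23.9 against 12.5 CPM and 26.1 against 17.5 CPM. Its ratio between the libraries was 0.13 (0.01 to 0.26) in matrix-high cells and 0.48 (0.34 to 0.62) in the others. The Thbs1 ratio between the libraries was 0.24 (-0.11 to 0.59) in matrix-high cells (3.16 and 3.72 CPM) and 1.03 (0.77 to 1.30) in the others (3.22 and 6.59 CPM). Cd47 followed the matrix score at 511 against 377 CPM and 516 against 388 CPM, and Axl ran against it at 98.5 against 125 CPM and 102 against 118 CPM. Cells above the median of a cycling score had less Cd47 (389 against 487 CPM and 397 against 523 CPM) and less Pros1 (6.64 against 11.3 CPM and 7.28 against 11.98 CPM). Those cycling cells had more Tyro3 (8.84 against 7.41 CPM and 10.1 against 6.94 CPM). Tyro3 was lower in cells above the median of a hypoxia score (6.82 against 9.55 CPM and 7.60 against 10.2 CPM). Hmga2 was lower in matrix-high cells (139 against 274 CPM and 158 against 273 CPM), so the matrix split also separated cells by a tumour marker.

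**Figure D4:**
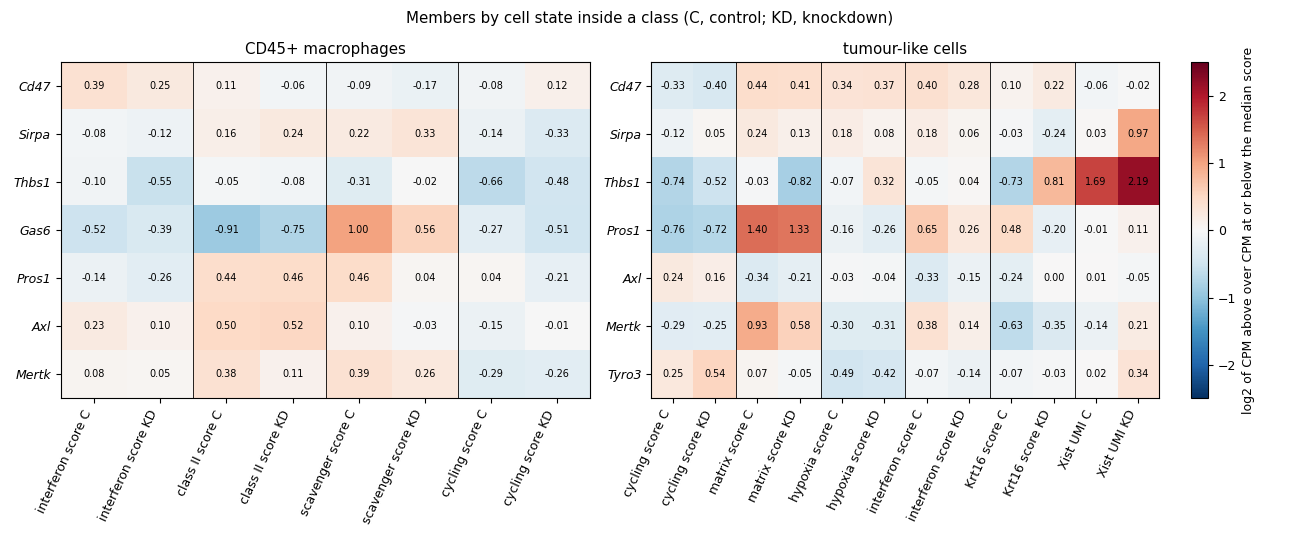
Log2 ratio of each member's CPM above over at or below the median of a cell state score (colour and printed value) in CD45+ macrophages and in tumour-like cells of the control (C) and knockdown (KD) libraries. Tyro3 in macrophages and Gas6 in tumour-like cells are left out for low counts. Gas6 is high with scavenger and low with class II genes, and Pros1 and Mertk are high in matrix-high tumour-like cells.

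Cells with UMIs of 2 members were counted after thinning to 3000 UMIs, and the counts lay near the product of the single shares or above it. There, 267 of 2178 control and 198 of 1799 knockdown CD45+ macrophages had both an Axl and a Mertk UMI, where the product of the single shares gives 253.0 and 200.4 cells. Gas6 and Axl were found together in 100 and 60 cells, with 102 and 58.9 from the product. Gas6 and Mertk were found together in 115 and 67 cells, with 98.3 and 58.0 from the product, and in the whole macrophage class in 159 and 94 cells, with 129.8 and 69.6. In tumour-like cells Thbs1 and Cd47 were found together in 31 of 4977 and 55 of 5195 cells, with 30.5 and 50.2 from the product.

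Genes with the most similar profile were sought among 14891 genes over 8 points (4 classes in 2 libraries) as the smallest root mean square difference of centred log2(CPM + 1) values. The points share libraries and depth, so the likeness is a description. Cd47 lay nearest to Reps1 (0.07), Srsf10 (0.08) and Nck1 (0.09), and Axl to Lipa (0.12), Ly96 (0.13) and Anxa4 (0.16). Sirpa lay nearest to Adap2os (0.18), Unc93b1 (0.21) and Cd180 (0.22). Pros1 lay nearest to 6330562C20Rik (0.07), Dusp23 (0.12) and Bach1 (0.13), and Tyro3 to Eda (0.11), Cldn12 (0.16) and Hsf4 (0.18). The nearest profiles were less close for Thbs1 (Nuak2, 0.31, Treml4, 0.37, and 0610040J01Rik, 0.38), Mertk (Gm49723, 0.40, Rab3il1, 0.40, and ENSMUSG00000120242, 0.42) and Gas6 (Negr1, 0.51, Dnase1l3, 0.55, and ENSMUSG00000119966, 0.56).

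The wider pathway was read from 8 lists with 102 genes in all. In CD45+ macrophages 4 of 79 genes compared were at least 1.5-fold higher in the knockdown library (5.06%) and 0 were lower, beside 3.78% and 1.39% of all genes compared in that class. Sirpb1a, a SIRP family gene, stood at 22.5 and 35.5 CPM, a log2 ratio of 0.66 (0.46 to 0.87). The other 3 were Thbs2, a second thrombospondin (0.92, 0.62 to 1.22), Edil3, a bridge between phosphatidylserine and integrins (0.95, 0.54 to 1.37), and Twist1, a transcription factor linked to AXL signalling (1.36, 0.99 to 1.74). These 3 had far higher levels in tumour-like cells, where Thbs2 stood at 113 and 130.4 CPM, Edil3 at 51.0 and 51.5 CPM and Twist1 at 102 and 119 CPM, and the part of tumour RNA in their macrophage ratios was not tested.

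In the whole macrophage class 8 of 82 genes (9.76%) were higher and 2 (2.44%) lower, near the 10.6% and 1.32% of all genes. Anxa1, an annexin that binds phosphatidylserine, stood at 219 and 457 CPM, a ratio of 1.07 (1.02 to 1.11), beside 1176 and 1414 CPM in tumour-like cells. Gulp1, an engulfment adaptor (2.03, 1.65 to 2.43), Siglecg, a receptor for CD24 (1.64, 1.10 to 2.20), Ggcx, the carboxylase that activates GAS6 and protein S (0.71, 0.36 to 1.07), and Mfge8, a phosphatidylserine bridge (0.63, 0.42 to 0.84), were higher too, along with Thbs2 (1.15), Edil3 (1.39) and Twist1 (1.54). In CD45+ macrophages the ratios of Anxa1, Mfge8 and Ggcx were 0.52 (0.44 to 0.60), 0.26 (-0.08 to 0.60) and 0.23 (-0.31 to 0.75). Gulp1 (20 and 59 UMIs) and Siglecg (12 and 29 UMIs) were too sparse there to be compared. All 8 had a higher level in tumour-like cells than in macrophages of the same library. The 2 lower genes were low in tumour-like cells: Msr1, a scavenger receptor, stood at 121 and 79.9 CPM (-0.60, -0.69 to -0.52), and Sirpb1c, another SIRP family gene, at 119.8 and 77.1 CPM (-0.64, -0.72 to -0.55). In CD45+ macrophages their ratios were -0.33 (-0.44 to -0.23) and -0.44 (-0.54 to -0.33). In tumour-like cells 1 of 70 genes was higher, the Fc receptor gene Fcgr4 (2.01 and 3.07 CPM), and 1 was lower, the complement gene C4b (17.6 and 6.36 CPM, -1.47, -1.61 to -1.33), which is 1.43% in each direction beside 2.2% higher and 0.743% lower over all genes. C1q summed to 120.0 and 141.5 CPM in that class, and the part of macrophage RNA in the Fcgr4 levels was not tested. Median ratios of the 8 lists in CD45+ macrophages ran from -0.12 for other eat-me ligands and phagocytic receptors to 0.17 for TAM feedback targets, next to 0.03 over all genes.

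**Figure D5:**
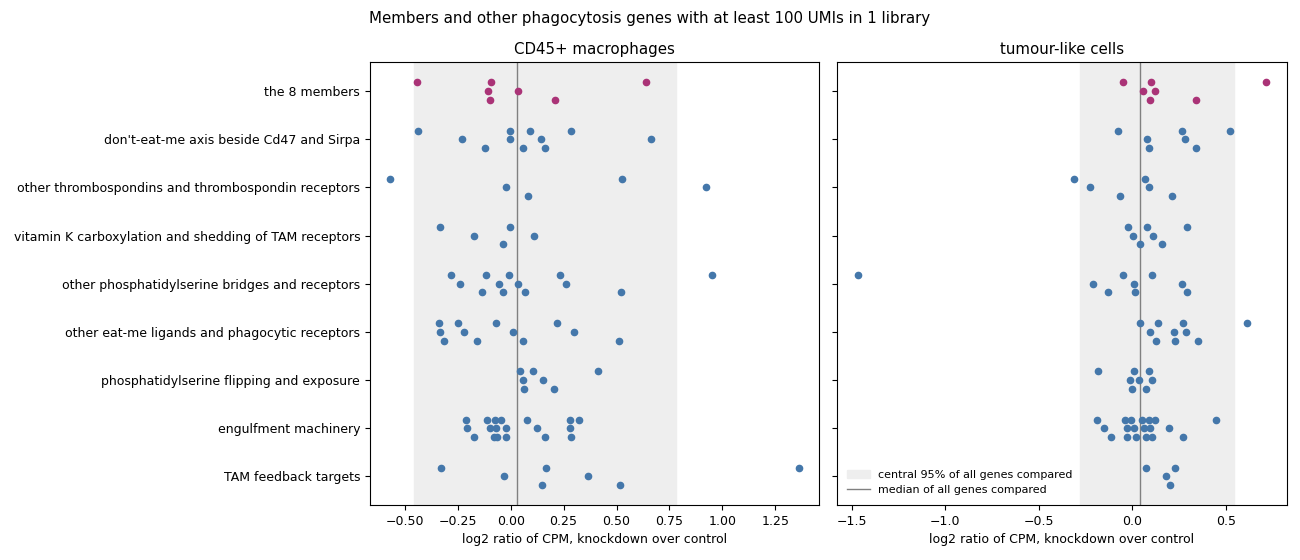
Log2 ratio of CPM, knockdown over control (horizontal axis), for the members and the genes of 8 pathway lists with at least 100 UMIs in 1 library, 1 point per gene, in CD45+ macrophages and tumour-like cells, with the median and central 95% of all genes compared. Most points lie in the shaded band, Thbs1 lies outside it in tumour-like cells, and C4b lies farthest to the left.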

How the data were processed

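Droplet single-cell RNA was counted in 1 control and 1 knockdown library. The deposited matrices are raw UMI counts that the authors did not normalise. Per the file headers Cell Ranger 6.1.0 wrote them, whereas the submitters' processing notes name version 3.1.0, and the genome build is not given in the sources used here. They hold 11977 control and 12853 knockdown cells. From these counts, cells with fewer than 200 genes or over 20% mitochondrial UMIs were left out (169 and 81), and the cells ranked highest by Scrublet were removed at 0.8% per 1000 cells (1148 and 1322). Scrublet's own threshold would have marked 1069 and 2138.

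CPM is the summed UMIs of a gene over those of all genes in the same cells. A call needed at least 100 UMIs in 1 library and a fold of 1.5. Macrophage RNA at a class's C1q level is the CPM of a member in CD45+ macrophages times the ratio of C1q CPM in the class to that in CD45+ macrophages, and tumour RNA at its Col3a1 level was computed likewise from tumour-like cells. The fold calls and intervals were tested on simulated data. All 8 members are named, with the pathway genes past the fold (at most 3 per list and direction) and 3 genes of most similar profile per member. Members, lists and classes were chosen with earlier results of these data known. One macrophage split is not reported here. Alternatives were other doublet rules, class thresholds, scalings by edgeR 4.0.16 (TMM) and DESeq2 1.42.0 (median of ratios), thinning and UMI minimums. Python 3.11.15, numpy 2.4.6, scipy 1.17.1, pandas 2.3.3, scanpy 1.11.5 and R 4.3.3 were used.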

Additional observations from a re-analysis of the deposited data

Results flagged for a closer look

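Mertk was flagged because its log2 ratio of knockdown over control had opposite signs in 2 classes of the same libraries. It was -0.22 in macrophages and 0.34 in tumour-like cells, and the intervals of both exclude 0. With 1 library per group the difference between the classes was not tested. Hmga2 in the macrophage class was 33.5 CPM under control and 91.3 CPM under knockdown, and in CD45+ macrophages, with 14.7 and 41.4 CPM of Hmga2, the Mertk ratio was -0.09. In tumour-like cells without a C1q UMI it was 0.13 (-0.13 to 0.39), an interval that includes 0.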

How the results depend on the processing

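No paired analysis was possible because each group had 1 library. Over 12 alternatives the ratio of Gas6 in macrophages ran from -0.85 to -0.35, that of Sirpa from -0.44 to -0.04 and that of Mertk from -0.31 to -0.05. That of Thbs1 in tumour-like cells ran from 0.56 to 0.82, and these ratios kept their sign. Thbs1 fell under 1.5-fold with every cell weighted equally (0.562) and without C1q (0.57). Gas6 fell under it with Scrublet's own threshold (-0.53), without Hmga2 cells (-0.501), in CD45+ macrophages (-0.441) and in those without Hmga2 (-0.353).

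In macrophages, Sirpa was at -0.28 without doublet removal and over all deposited barcodes, -0.26 with stricter class thresholds, -0.44 by TMM and by median of ratios, -0.14 with Scrublet's own threshold, -0.15 without Hmga2 cells, -0.097 in CD45+ macrophages and -0.035 in those without Hmga2. In the last 4 settings, in that order, Gas6 was at -0.53, -0.50, -0.44 and -0.35 and Mertk at -0.047, -0.097, -0.093 and -0.064. Cd47 ran from 0.182 to 0.306 over its 12 alternatives. By either scaling Mertk was at -0.31 and Axl at -0.25. In tumour-like cells, by either scaling Cd47 was at 0.019 (TMM) and 0.018 and Axl at -0.088 and -0.089, thinning gave Axl 0.03 and Pros1 -0.10, and cells without C1q gave Pros1 -0.13 (109 UMIs in each library) and Gas6 0.88 from 2 and 4 UMIs. Signs also turned in the smaller classes. In T cells Sirpa had the other sign in 6 of 11 alternatives (0.333 as reported, -0.286 without doublet removal, -1.094 with Scrublet's threshold), Mertk in 3, Axl in 2 and Cd47 in 1. Thbs1 in T cells was at -0.002 in cells of exactly 1 class and -3.42 without C1q or Hmga2, where Pros1 was at -0.13, thinned T cells gave Tyro3 0.33, and stricter thresholds gave Axl -1.57 in monocytes. The causes were not tested.

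Counts of genes past 1.5-fold moved with the UMI minimum (lowered together with an added count in 1 setting), the scaling, doublet removal and the class definition. With at least 20 UMIs in 1 library, 2205 genes were higher and 359 lower in macrophages, 641 and 805 in monocytes, 719 and 475 in T cells and 944 and 355 in tumour-like cells. With 1 UMI and 0.5 added, they were 5886 and 2644, 6200 and 1726, 4171 and 3225, and 4156 and 2953. The main counts were 1144 and 142, 25 and 105, 189 and 96, and 272 and 92. TMM and median of ratios gave 240 lower genes in macrophages. Without doublet removal 424 were higher in macrophages, 38 in monocytes and 101 in T cells, with 55 lower in T cells. CD45+ macrophages had 355 higher, and T cells of exactly 1 class had 101 higher.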

Other observations

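Pathway genes were also compared in the smaller classes, with the control value first in each pair. In T cells 6 of 55 pathway genes were at least 1.5-fold higher in the knockdown library (10.9%) and 1 (1.82%) was lower, beside 3.01% and 1.53% of all genes compared. Havcr2, the gene of the phosphatidylserine receptor TIM-3, stood at 32.1 and 69.5 CPM, with a log2 ratio of 1.11 (0.80 to 1.43). Itgav, an integrin chain, stood at 174 and 271 CPM (0.64, 0.49 to 0.78), and Socs1, an inhibitor of cytokine signalling, at 105.0 and 158 CPM (0.59, 0.40 to 0.77). Fcgr4 (18.3 and 54.6 CPM), Plscr1 (51.3 and 81.0 CPM) and Cybb (30.6 and 52.2 CPM) were higher as well, and Thbs2 was lower (71.3 and 46.1 CPM). The summed macrophage markers of the T cell class were 4875 and 6252 CPM, and their part in these ratios was not tested.

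In monocytes 1 of 24 pathway genes was higher, Anxa1 (423 and 754 CPM), and 6 were lower, in a class where 3.18% of all genes were higher and 13.4% lower. Fcgr3, an Fc receptor gene, stood at 491 and 139.7 CPM, with a log2 ratio of -1.81 (-2.67 to -1.06). Cd14, a receptor for lipopolysaccharide, stood at 527 and 186 CPM (-1.50, -2.24 to -0.85). Trem2, Lgals3, Sirpb1c and Socs3 had ratios of -0.94, -1.14, -1.39 and -0.72. These rest on 144 control and 40 knockdown cells, and the summed neutrophil markers of the class were 1286 and 83.8 CPM, whose part in these ratios was not tested.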
